A study of Mus musculus with 2 samples.

Results

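Nuclear receptors are transcription factors that contain a zinc finger DNA-binding domain and, in most members, a pocket for a small lipophilic ligand such as a steroid, thyroid hormone, vitamin D, a fatty acid or an oxysterol. Many of them bind copies of the hexamer AGGTCA as monomers, homodimers or heterodimers with an RXR partner, and they exchange corepressors for coactivators when ligand is bound. In cartilage, thyroid hormone, glucocorticoid, estrogen and vitamin D receptors are known regulators of growth plate chondrocytes, and in skin several receptors act in lipid metabolism and hair follicle biology.

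The genes described here are the 31 nuclear receptor genes of a fixed list of symbols, which leaves out the retinoic acid receptors, *Rxra* and *Pparg*. All 31 have a row in the deposited table of 24421 gene symbols. The data comprised 1 RNA-Seq library of primary chondrocytes, isolated with collagenase from newborn mouse rib cartilage and kept for at most 2 passages, and 1 library of primary dermal fibroblasts from the dorsal skin of newborn mice. Both were taken up in DMEM with fetal bovine serum, no treatment is named for either, and neither the labels nor the methods give a strain, a genotype or the number of animals behind a library. The RNA-Seq experiment served to find transcription factors that are higher in chondrocytes than in dermal fibroblasts.

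The deposited values are read counts per gene, 18788599 in chondrocytes and 17563724 in dermal fibroblasts. They were scaled with TMM factors (0.954 and 1.05), and levels are given as CPM (scaled counts per 1000000). As each cell type had 1 library, there is no replicate error and no p-value. Each fold carries a 95% interval (Clopper-Pearson) of the counting error alone, and a gene was called when its fold was over 2 after counts under 3 were set to 3. All 8 chondrocyte markers examined were over 2-fold higher in the chondrocyte library, *Col2a1* with 1447098 counts against 0, and all 8 dermal fibroblast markers were over 2-fold higher in the fibroblast library, *Col1a1* with 322379 counts against 39143. Markers of other cell types were also counted. Skeletal muscle markers summed to 1972 CPM in chondrocytes and 1379 CPM in dermal fibroblasts. Keratinocyte markers (9.04 and 256 CPM, 5 of 7 called), adipocyte (442 and 3363 CPM), melanocyte (9.21 and 61.1 CPM), endothelial (13.6 and 40.7 CPM), Schwann cell (13.6 and 44.8 CPM) and macrophage (100.4 and 159.9 CPM) marker sums were each higher in the dermal fibroblast library. The melanocyte markers *Dct* and *Tyrp1* were at 0 in chondrocytes.

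For most receptors the libraries lay within 2-fold of each other, and most of those that did not were higher in dermal fibroblasts. Counts above 0 were found for 30 receptors, and 7 of the 31 were called higher in dermal fibroblasts: *Pgr*, *Rorb*, *Nr1h3*, *Nr2f1*, *Nr3c2*, *Ppara* and *Esr1*. These are 23.3% of the 30, against 13.9% of all 17718 genes with a count. In the other direction 2 receptors were called, *Esrrg* and *Nr5a2*, which is 6.67%, against 10.7% of all genes, and both had at most 10 counts. The share depended on abundance. Of the 18 receptors with a mean of at least 100 scaled counts, 2 were higher in dermal fibroblasts (11.1%), which is near the background of 12.1%, and 0 were higher in chondrocytes, against 8.08% of all genes. Of the 9 receptors with a mean of 10 to under 100 scaled counts, 5 were higher in dermal fibroblasts, against 25.8% of all genes in that range, and 0 were higher in chondrocytes, against 20.7%. The whole interval lay beyond 2-fold for *Pgr*, *Rorb* and *Nr1h3*, which is 3 of the 27 receptors with a mean of at least 10 scaled counts (11.1%), against 10.7% of all genes, and for 0 receptors on the chondrocyte side, against 7.05%. The same 3 were over 4-fold higher in dermal fibroblasts, against 6.23% of all genes, and 0 were over 4-fold higher in chondrocytes, against 4.58%. Of all genes with that mean, 15.2% were over 2-fold higher in dermal fibroblasts and 10.9% in chondrocytes. The median log2 fold of these 27, chondrocytes over dermal fibroblasts, was -0.20, with 17 higher in dermal fibroblasts and 10 in chondrocytes. The median of all 13797 genes with that mean was 0.000324. In bulk libraries, fewer cells of a type and less RNA per cell cannot be told apart.

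**Figure D1:**
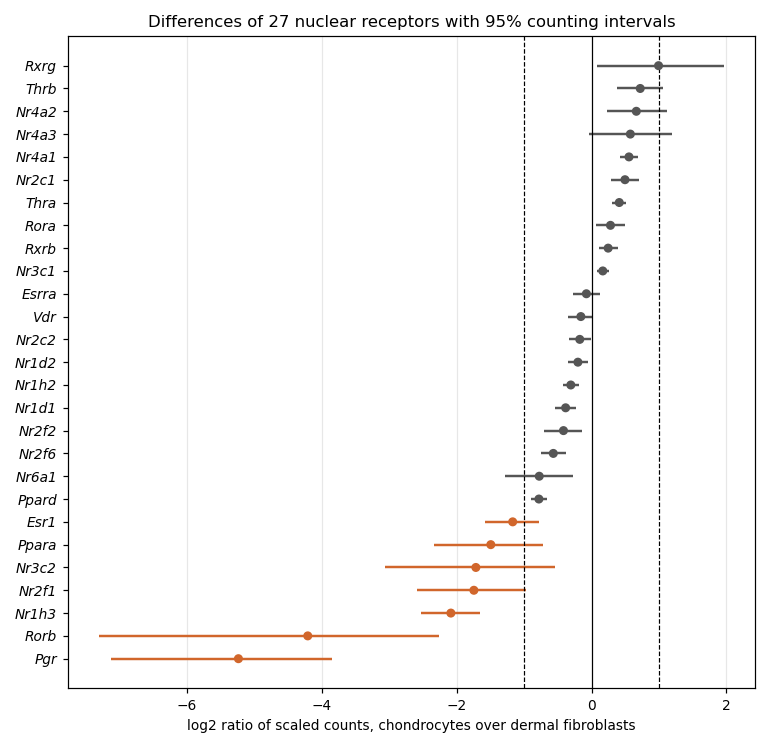
The log2 ratio of scaled counts, chondrocytes over dermal fibroblasts, for the 27 receptors with a mean of at least 10 scaled counts. Points are ratios of 1 library to 1 library, bars are 95% counting intervals, dashed lines mark 2-fold, and orange marks the 7 receptors called higher in dermal fibroblasts, with no called receptor on the chondrocyte side.

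The summed level of all 31 receptors was close in the libraries, with 12461 counts (695 CPM) in chondrocytes against 13441 counts (730.1 CPM) in dermal fibroblasts. At least 100 counts were found for 17 receptors in chondrocytes and for 19 in dermal fibroblasts. For a comparison between genes, CPM was divided by the exon length in kilobases. On this scale the 5 highest receptors in chondrocytes were *Nr4a1* (23.9 CPM per kb), *Thra* (20.7), *Nr1h2* (17.1), *Nr3c1* (16.2) and *Rxrb* (12.99). The 5 highest in dermal fibroblasts were *Nr1h2* (21.1 CPM per kb), *Ppard* (17.4), *Nr4a1* (16.2), *Thra* (15.6) and *Nr3c1* (14.4). *Nr4a1*, *Thra*, *Nr1h2* and *Nr3c1* were thus among the 5 highest in both libraries, and *Ppard* was at place 7 and *Rxrb* at place 8 in the other library. These orders have no replicate check. At the other end, *Esrrb* had 0 counts in both libraries, a floor of 3 counts that corresponds to 0.167 CPM in chondrocytes and 0.163 CPM in dermal fibroblasts, and *Esr2* had 2 counts in each.

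**Figure D2:**
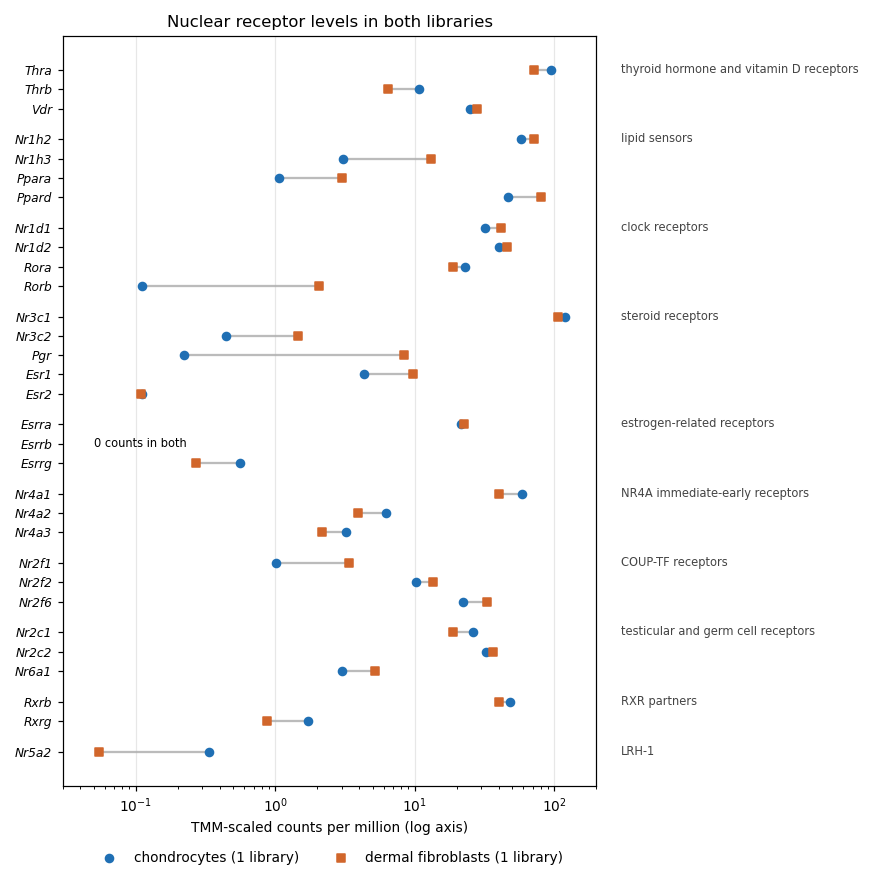
Levels of the 31 receptors by role, in TMM-scaled CPM on a log axis, with circles for the chondrocyte library and squares for the dermal fibroblast library. The pairs of *Pgr*, *Rorb* and *Nr1h3* are the farthest apart among receptors with a mean of at least 10 scaled counts, and *Esrrb* is at 0 in both; levels of different genes are not comparable on this axis, which is not per length.

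Promoter sequences are shown for 4 receptors, namely *Pgr* and *Nr1h3*, as the receptor with the largest difference and the most abundant one with its whole interval beyond 2-fold, and *Nr1d2* and *Nr4a3*, as examples of letters that receptors or their inducers are known to bind. They are the 250 bases before a RefSeq transcription start in GRCm38.p6, the build of mm10, written 5′ to 3′ on the strand of the gene. For *Pgr*, *Nr1h3* and *Nr4a3* the start used lies inside the annotated span of the gene, which has other starts. The printed windows of *Pgr* and *Nr1h3* lie wholly within that span and that of *Nr4a3* lies partly within it. Only the *Nr1d2* window lies wholly outside it. Capitals mark matches, on either strand, to any of 4 motifs that do not overlap in the windows printed. The nuclear receptor hexamer was searched as AGGTCA. The E-box that CLOCK and BMAL1 are known to bind was searched as CACGTG. The core of the cAMP response element was searched as TGACGT. The letters of the TATA box consensus were searched as TATAAA, which reads TTTATA when it lies on the opposite strand, as in *Pgr*.
Pgr (chr9:8899583-8899832, plus strand): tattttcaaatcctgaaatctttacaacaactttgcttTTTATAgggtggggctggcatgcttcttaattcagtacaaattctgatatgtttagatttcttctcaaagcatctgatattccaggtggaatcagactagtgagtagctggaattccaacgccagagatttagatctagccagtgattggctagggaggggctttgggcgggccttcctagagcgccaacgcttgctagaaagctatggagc
Nr1h3 (chr2:91195117-91195366, minus strand): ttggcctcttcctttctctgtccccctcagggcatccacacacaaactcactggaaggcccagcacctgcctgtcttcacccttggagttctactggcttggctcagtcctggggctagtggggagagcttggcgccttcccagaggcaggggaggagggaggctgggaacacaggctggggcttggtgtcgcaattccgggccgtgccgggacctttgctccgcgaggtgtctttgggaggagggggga
Nr1d2 (chr14:18239107-18239356, minus strand): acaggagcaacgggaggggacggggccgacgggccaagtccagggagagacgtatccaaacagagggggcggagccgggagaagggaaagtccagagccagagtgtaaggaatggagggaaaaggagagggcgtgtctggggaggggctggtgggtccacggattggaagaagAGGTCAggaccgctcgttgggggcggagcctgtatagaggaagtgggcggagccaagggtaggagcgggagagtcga
Nr4a3 (chr4:48045055-48045304, plus strand): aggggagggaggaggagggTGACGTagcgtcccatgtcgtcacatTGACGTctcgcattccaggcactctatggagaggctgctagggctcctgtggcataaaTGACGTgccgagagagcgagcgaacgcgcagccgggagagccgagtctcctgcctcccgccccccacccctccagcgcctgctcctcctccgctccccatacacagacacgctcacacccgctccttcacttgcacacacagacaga

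The *Nr1h3* window held none of these letters, and that of *Pgr* held 1 match, to TATAAA on the opposite strand, its first base 212 bases before the listed start. The *Nr1d2* window held 1 hexamer, beginning 77 bases before the start, and the *Nr4a3* window held 3 copies of TGACGT, beginning 231, 205 and 147 bases before the start. The *Pgr* window had a GC content of 43.6%, against 63.2% to 63.6% for the other 3. Of the 31 receptors, 29 had a listed start, with 42 windows in all. The hexamer was in the windows of 5 receptors (*Nr1d2*, *Nr5a2*, *Nr6a1*, *Rxrg* and *Thrb*; 5 of the 42 windows), against 14% of all 32851 windows. CACGTG was in those of *Esr2* and *Thrb* (2 of the 42 windows, against 6.02% of all windows). TGACGT was in those of *Nr2c1* and *Nr4a3* (2 of the 42 windows, against 6.47%). TATAAA was in those of 5 receptors (5 of the 42 windows, against 12.4%). These matches are descriptions of letters, and no binding was measured here.

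Of the steroid receptors, the glucocorticoid receptor gene *Nr3c1* lay well within 2-fold, and 3 of the 5, *Pgr*, *Esr1* and *Nr3c2*, were called higher in dermal fibroblasts. *Nr3c1* had 2156 counts (120.3 CPM) in chondrocytes against 1974 counts (107.2 CPM) in dermal fibroblasts and was 1.12-fold higher in chondrocytes (interval 1.05 to 1.19). *Pgr*, the progesterone receptor (chromosome 9 of GRCm38, 8898900 to 8968611), had 4 counts (0.223 CPM) in chondrocytes against 155 counts (8.42 CPM) in dermal fibroblasts and was 37.7-fold higher in the latter (interval 14.4 to 140.2). It showed the largest difference of all 31 receptors, and its promoter is the first one printed above. *Esr1*, the estrogen receptor alpha gene (chromosome 10, 4611989 to 5005633), had 77 and 178 counts and was 2.25-fold higher in dermal fibroblasts, with an interval (1.71 to 2.98) that reached below 2-fold. *Nr3c2*, the mineralocorticoid receptor gene (chromosome 8, 76898083 to 77245012), had 8 and 27 counts, and its 3.29-fold difference in the same direction had an interval from 1.45 to 8.37. *Esr2* was at 2 counts in each library, which gives no fold.

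The genes around the steroid receptors did not share 1 direction. Of the 9 chaperone and cochaperone genes that hold steroid receptors in a ligand-ready state, 0 were over 2-fold apart. *Hsp90ab1* had 40525 counts in chondrocytes against 32920 in dermal fibroblasts, and *Fkbp4* had 2541 and 1756. Of 2 genes of glucocorticoid activation, 0 were called, and *Hsd11b1* had 94 and 149 counts. Of the 14 glucocorticoid-responsive genes with a mean of at least 10 scaled counts, 4 were over 2-fold higher in chondrocytes and 2 in dermal fibroblasts. *Lcn2*, which encodes the siderophore-binding protein lipocalin 2, was 101-fold higher in chondrocytes (884 counts against 9, interval 52.9 to 221), and the phosphatase gene *Dusp1* was 3.25-fold higher there (2560 against 810). The Krüppel-like factor gene *Klf9* was 2.86-fold higher in dermal fibroblasts (448 against 1315 counts). Of 8 genes of sex steroid synthesis and response, 2 were called higher in chondrocytes and 3 in dermal fibroblasts. *Greb1*, an estrogen-induced coregulator gene, had 55 and 326 counts and was higher in dermal fibroblasts by 5.77-fold (interval 4.33 to 7.83), the direction of *Esr1* and *Pgr*. *Igfbp4*, an IGF-binding protein gene, had 5475 and 1432 counts and was 3.93-fold higher in chondrocytes.

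Among the lipid sensors, the liver X receptor genes differed from each other. *Nr1h2* (LXR beta), which is made in most tissues, had 1030 counts (57.5 CPM) in chondrocytes against 1310 counts (71.2 CPM) in dermal fibroblasts, a 1.24-fold difference toward dermal fibroblasts (interval 1.14 to 1.35). *Nr1h3* (LXR alpha; chromosome 2, 91184061 to 91202829), known from liver, fat and macrophages, had 55 counts (3.07 CPM) and 240 counts (13.04 CPM) and was 4.25-fold higher in dermal fibroblasts, with the whole interval (3.16 to 5.80) beyond 2-fold. *Nr1h3* made up 5.07% of the counts of both LXR genes in chondrocytes (interval 3.84% to 6.55%) and 15.5% in dermal fibroblasts (13.7% to 17.4%). These shares need no scaling between libraries, and their intervals did not overlap. Of 11 LXR targets, which include *Nr1h3* itself, the fibroblast library was over 2-fold higher for 10 and the chondrocyte library for 0, against the 15.2% and 10.9% of all genes given above. The exception was *Srebf1* (2365 and 3577 counts), named after its values were seen. The median log2 fold of the list was -1.92. *Apoe*, the apolipoprotein E gene, had 602 and 6640 counts (10.7-fold, interval 9.88 to 11.7), and the phospholipid transfer protein gene *Pltp* had 143 and 840 counts (5.72-fold). The cholesterol exporter *Abcg1* had 74 and 289 counts (3.80-fold), the desaturase gene *Scd1* had 2744 and 13948 counts (4.95-fold), and the fatty acid synthase gene *Fasn* had 3823 and 11099 counts (2.83-fold). *Scd1* and *Fasn* are also targets of SREBP-1, and both are abundant in fat cells. Adipocyte markers moved with this list, 4 of 5 over 2-fold higher in dermal fibroblasts, among them *Adipoq* with 136 and 1397 counts. The marker that was not called was *Plin1*, with 607 and 562 counts. Of 5 macrophage markers, 1 was called, *Csf1r* with 160 and 430 counts. The part of these cells in the LXR values was not tested.

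The peroxisome proliferator-activated receptor genes, which encode fatty acid sensors, both had more scaled counts in dermal fibroblasts, and *Ppara* was called. *Ppard* had 840 counts (46.9 CPM) in chondrocytes against 1483 counts (80.6 CPM) in dermal fibroblasts. This was a 1.72-fold difference, under the 2-fold threshold, with an interval (1.58 to 1.87) that left out equality. *Ppara* (chromosome 15, 85734910 to 85806851) had 19 and 55 counts, a 2.82-fold difference with an interval from 1.65 to 5.03. *Ppara* made up 2.21% of the counts of this pair in chondrocytes (interval 1.34% to 3.43%) and 3.58% in dermal fibroblasts (2.71% to 4.63%), and these intervals overlapped. Of 17 PPAR targets, the fibroblast library was over 2-fold higher for 5 and the chondrocyte library for 1, with a median log2 fold of -0.56. Among them, the lipid droplet gene *Plin2* had 1556 and 4910 counts and was 3.07-fold higher in dermal fibroblasts, and *Cpt1a*, which encodes the carnitine palmitoyltransferase of mitochondrial fatty acid import, had 778 and 1994 counts and was 2.50-fold higher there. *Hadha*, of mitochondrial beta-oxidation, had 2566 and 2651 counts. *Fabp4* (1251 and 3525 counts) stands in both this list and the adipocyte marker list.

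**Figure D3:**
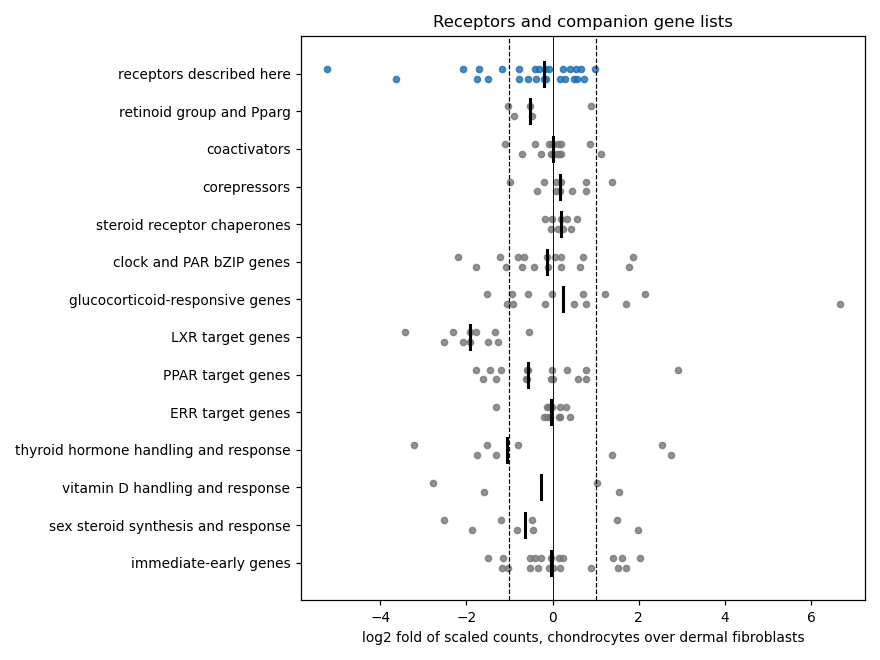
The log2 fold of scaled counts, chondrocytes over dermal fibroblasts, for the 27 receptors (blue) and for the genes with a mean of at least 10 scaled counts in each companion list that has at least 4 of them (grey), counts under 3 set to 3. Black bars are medians and dashed lines mark 2-fold; all 11 LXR target genes lie on the fibroblast side, while the chaperone genes lie within 2-fold and their median is 0.21.

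Of the 4 receptors of the circadian clock, *Rorb* was called higher in dermal fibroblasts. The others differed by less than 2-fold, and their counting intervals, which hold the TMM scaling fixed, left out equality. With other scalings the fold of *Nr1d2* toward dermal fibroblasts went down to 1.06 and that of *Rora* toward chondrocytes to 1.11. REV-ERB receptors, encoded by *Nr1d1* and *Nr1d2*, repress the clock gene *Arntl*, and ROR receptors activate it through the same sites. *Nr1d1* had 571 counts (31.9 CPM) in chondrocytes against 766 counts (41.6 CPM) in dermal fibroblasts, and *Nr1d2*, the gene with the hexamer in its printed promoter, had 718 counts (40.1 CPM) and 849 counts (46.1 CPM). They were 1.31-fold (interval 1.17 to 1.46) and 1.15-fold (interval 1.04 to 1.27) higher in dermal fibroblasts. *Nr1d1* made up 44.3% of the REV-ERB counts in chondrocytes and 47.4% in dermal fibroblasts, with overlapping intervals (41.6% to 47.1% and 45.0% to 49.9%). *Rora* had 409 and 346 counts, 1.21-fold higher in chondrocytes (interval 1.05 to 1.41). *Rorb* (chromosome 19, 18930609 to 19111196), known from retina, brain and osteogenic cells, had 2 counts in chondrocytes against 38 in dermal fibroblasts, a ratio of 18.5 with a wide interval from 4.78 to 158. *Rorb* thus made up 0.487% of the *Rora* and *Rorb* counts in chondrocytes (interval 0.0590% to 1.75%) and 9.90% in dermal fibroblasts (7.10% to 13.3%).

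Of 17 clock and PAR bZIP genes, 2 were over 2-fold higher in chondrocytes and 4 in dermal fibroblasts, and the median log2 fold was -0.13. The repressor genes *Per2* (466 counts in chondrocytes against 141 in dermal fibroblasts, 3.39-fold) and *Ciart* (352 and 99, 3.65-fold) were higher in chondrocytes. *Arntl*, named here after its values were seen, had 224 and 488 counts, *Dbp*, an output gene of the clock, had 87 and 207 counts, and *Bhlhe40*, a hypoxia- and clock-responsive repressor gene, had 809 and 2858 counts. *Clock* itself had 1264 and 1129 counts. The time of day at which each culture was collected is not given in the sources used here.

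The thyroid hormone receptor genes both had more scaled counts in chondrocytes, and neither reached 2-fold. *Thra*, the form that predominates in bone and cartilage, had 1709 counts (95.3 CPM) in chondrocytes against 1321 counts (71.8 CPM) in dermal fibroblasts and was 1.33-fold higher in chondrocytes (interval 1.24 to 1.43). *Thrb* had 191 and 119 counts, a fold of 1.65 (interval 1.30 to 2.09). *Thrb* was 10.1% of the counts of both genes in chondrocytes (interval 8.74% to 11.5%) and 8.26% in dermal fibroblasts (6.89% to 9.81%). *Thra* and *Nr1d1* lie on opposite strands of chromosome 11 and share 1075 bp at their 3′ ends in GRCm38. The strand setting of the counting is not given in the sources used here, so reads in this stretch cannot be assigned with certainty to 1 of them. *Thra* was higher in chondrocytes and *Nr1d1* in dermal fibroblasts. The *Vdr* gene, for the vitamin D receptor, had 449 counts (25.05 CPM) and 515 counts (27.97 CPM), a 1.12-fold difference toward dermal fibroblasts with an interval that included equality (0.982 to 1.27).

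Genes that handle or answer thyroid hormone went in both directions. Of the 8 with a mean of at least 10 scaled counts, 3 were over 2-fold higher in chondrocytes and 4 in dermal fibroblasts. The transporter gene *Slc16a10* had 117 and 402 counts and was 3.35-fold higher in dermal fibroblasts. The hormone-responsive corepressor gene *Hr* had 1362 and 535 counts and was 2.61-fold higher in chondrocytes (interval 2.36 to 2.90). The deiodinase genes *Dio2*, which activates thyroxine (79 and 12 counts), and *Dio3*, which inactivates the hormone (51 and 9 counts), were both over 2-fold higher in chondrocytes, and both were named after their values were seen. Of the vitamin D list, 4 of 10 genes had a mean of at least 10 scaled counts, 2 called in each direction. *Spp1*, the osteopontin gene, had 9639 and 3413 counts and was 2.90-fold higher in chondrocytes. *Cyp24a1*, the vitamin D catabolic gene that is the receptor's best-known target, had 2 counts in chondrocytes against 1 in dermal fibroblasts, at or under the floor in both, and was likewise named after its values were seen.

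The NR4A genes, which are induced rapidly by stress, cAMP and growth factors and encode receptors without a classical ligand pocket, had more scaled counts in chondrocytes, and 0 of the 3 were called. *Nr4a1* had 1058 counts (59.0 CPM) in chondrocytes against 740 counts (40.2 CPM) in dermal fibroblasts and was 1.47-fold higher in chondrocytes (interval 1.34 to 1.62). *Nr4a2* had 111 and 72 counts (1.58-fold, interval 1.17 to 2.16). *Nr4a3*, the gene with 3 TGACGT cores in its printed promoter, had 58 and 40 counts (1.49-fold), and its interval included equality (0.979 to 2.29). The balance among the 3 genes was nearly the same in the libraries, with *Nr4a1* at 86.2% and 86.9% of their counts and *Nr4a3* at 4.73% and 4.69%. Other immediate-early genes had no common direction. Of 21, 5 were over 2-fold higher in chondrocytes and 4 in dermal fibroblasts, with a median log2 fold of -0.04. *Egr3* (272 and 91 counts) and *Atf3* (1102 and 397) were 3.07-fold and 2.85-fold higher in chondrocytes, *Klf6* (2362 and 4957) was 2.04-fold higher in dermal fibroblasts, and *Egr1* had 3900 and 5319 counts.

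The COUP-TF genes, whose products are orphan receptors of mesenchymal, vascular and neural development, had more scaled counts in dermal fibroblasts, and 1 of the 3, *Nr2f1*, was called. *Nr2f1* (chromosome 13, 78188971 to 78198873) had 18 counts in chondrocytes against 62 in dermal fibroblasts, a 3.35-fold difference whose interval began just below 2-fold (1.96 to 6.02). *Nr2f2* had 183 and 251 counts (1.34-fold, interval 1.10 to 1.62) and *Nr2f6* had 396 and 603 counts (1.48-fold, interval 1.30 to 1.69), both under the 2-fold threshold. *Nr2f1* made up 3.02% of the COUP-TF counts in chondrocytes (interval 1.797% to 4.72%) and 6.77% in dermal fibroblasts (5.23% to 8.59%), and the shares of *Nr2f2* (30.7% and 27.4%) and *Nr2f6* (66.3% and 65.8%) had overlapping intervals. *Nr2f2* is also known from venous endothelium and *Nr2f1* from neural crest derivatives. Endothelial markers (4 of 5) were over 2-fold higher in dermal fibroblasts, *Kdr* with 70 and 276 counts. So were 2 of 3 Schwann cell markers with a mean of at least 10 scaled counts, *Sox10* with 25 and 310 counts. The part of these cell types in the COUP-TF values was not tested.

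The testicular receptor genes *Nr2c1* and *Nr2c2*, which encode closely related repressors that bind the receptor hexamer, went in opposite directions by small factors. *Nr2c1* had 472 counts (26.3 CPM) in chondrocytes against 344 counts (18.7 CPM) in dermal fibroblasts and was 1.41-fold higher in chondrocytes (interval 1.22 to 1.62). *Nr2c2* had 581 counts (32.4 CPM) and 674 counts (36.6 CPM), 1.13-fold higher in dermal fibroblasts (interval 1.01 to 1.26). *Nr2c1* made up 44.8% of the counts of the pair in chondrocytes (interval 41.8% to 47.9%) and 33.8% in dermal fibroblasts (30.9% to 36.8%). These intervals did not overlap, although neither gene was called. The span of *Nr2c2* shares 3547 bp with *Mrps25* on the opposite strand, which had 296 and 394 counts. *Nr6a1*, the germ cell nuclear factor gene, had 54 and 95 counts, a 1.71-fold difference toward dermal fibroblasts (interval 1.21 to 2.44).

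**Figure D4:**
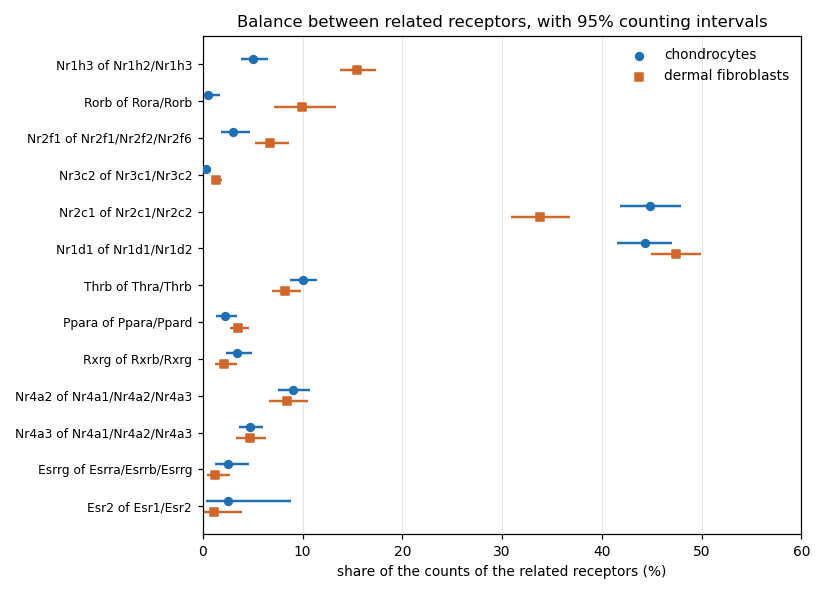
Share of each named gene in the counts of its receptor group, in percent, with circles for chondrocytes, squares for dermal fibroblasts and bars for 95% Clopper-Pearson intervals. The intervals of *Nr1h3*, *Rorb*, *Nr2f1*, *Nr3c2* and *Nr2c1* do not overlap between libraries, and those of the other 8 genes do.

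The estrogen-related receptor genes, which encode regulators of mitochondrial energy metabolism, included 1 with a mean of at least 10 scaled counts. *Esrra* had 382 counts (21.3 CPM) in chondrocytes against 414 counts (22.5 CPM) in dermal fibroblasts, 1.06-fold higher in the latter with an interval that included equality (0.916 to 1.22). Of the mitochondrial target genes listed for *Esrra*, itself included, 12 had a mean of at least 10 scaled counts. Their median log2 fold was -0.04, and 1 was called higher in dermal fibroblasts (*Perm1*, 13 and 33 counts, named after its values were seen). *Atp5b* had 17856 and 19245 counts. *Esrrg* had 10 and 5 counts, and its 2.05-fold difference toward chondrocytes had an interval from 0.640 to 7.66. *Nr5a2*, which encodes LRH-1, a receptor of liver and gonad, had 6 counts in chondrocytes against 1 in dermal fibroblasts, a ratio of 6.16 whose interval (0.748 to 283) included equality.

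Of the heterodimer partners, *Rxrb* had 861 counts (48.0 CPM) in chondrocytes against 746 counts (40.5 CPM) in dermal fibroblasts and was 1.19-fold higher in chondrocytes (interval 1.07 to 1.31). *Rxrg*, the form known from muscle and brain, had 31 and 16 counts, and its fold of 1.99 toward chondrocytes (interval 1.06 to 3.90) lay just under the threshold and passed it with 3 of the 5 other scalings, which makes it the 1 receptor with a mean of at least 10 scaled counts called higher in chondrocytes there. *Rxrg* and *Esrrg* are also made in skeletal muscle. Of the 10 muscle markers, 5 were over 2-fold higher in chondrocytes and 0 in dermal fibroblasts. *Des*, with 3790 and 1655 counts, was among those called, and *Myh3*, with 7784 and 6497 counts, was within 2-fold (1.23-fold higher in chondrocytes). The part of muscle cells in the values of *Rxrg* and *Esrrg* was not tested. Of the 5 genes of the retinoid group and *Pparg*, which are not among the 31, 0 were called higher in chondrocytes and 1 in dermal fibroblasts (*Rarb*, 10 and 21 counts, named after its values were seen), and *Rxra* had 1650 and 2430 counts.

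Few of the coregulators through which these receptors act were called. Of 16 coactivator genes, 1 was over 2-fold higher in each direction, with a median log2 fold of 0.01. On the chondrocyte side this was *Ppargc1a* (51 and 24 counts), named after its values were seen. *Carm1*, which encodes an arginine methyltransferase, had 2093 and 1926 counts, and *Kat2b*, for the acetyltransferase PCAF, had 273 and 606 counts and was 2.16-fold higher in dermal fibroblasts. Of 11 corepressor genes with a mean of at least 10 scaled counts, 1 was called, *Hr*. This gene is described above with the thyroid hormone list. *Ncor1* had 2913 and 3416 counts. Of 13 further nuclear receptor genes, which are in neither group, 9 were at 0 in chondrocytes and 10 in dermal fibroblasts.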

How the data were processed

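The authors prepared stranded mRNA libraries (TruSeq), sequenced them as 75 bp single-end reads and mapped them to mm10. The submitters' processing notes name CASAVA 1.8.2, TopHat2 2.0.13, Bowtie2 2.2.3 and SAMtools 0.1.19. The deposited values are read counts per gene symbol, not normalized. The program, annotation and strand setting used for counting are not given in the sources used here.

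TMM factors were computed with edgeR 4.0.16 in R 4.3.3. Python 3.11.15 did the rest, with scipy 1.17.1 for intervals, numpy 2.4.6, pandas 2.3.3 and matplotlib 3.10.9. Scaled counts are counts brought to a common effective library size. A count below 3 was raised to 3 for the fold, and a gene with 1 to 3 counts in 1 library is given by its plain ratio. Rows at 0 in both libraries stayed out of the background. The code was checked on simulated counts with counting error alone, for genes with a mean of at least 100 counts. That check says nothing of variation between replicates or of receptors under that mean. With 1 library per cell type there was no test across genes and no false discovery rate. Intervals describe counting alone, as each cell type had 1 library. Without molecular identifiers reads are not independent molecules, so the intervals can be too narrow even for counting error.

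Exon lengths came from GENCODE vM1 and were used as lengths only. Gene positions and promoters came from RefSeq on GRCm38.p6. The table holds 27 date-like symbols, none of a receptor described here. All 31 receptors are named. From each of the 24 companion and marker lists, the rule named the 3 most abundant genes and up to 3 others with the largest fold among those with a mean of at least 100 scaled counts, from which a selection is printed, and genes outside this rule are marked as named after their values were seen. Receptors and lists were chosen with earlier results of these data known. Alternatives were total counts, DESeq2 1.42.0 size factors, upper quartile, a total that leaves out the 10 highest genes, *Actb*, other floors, a pseudocount of 1, and other thresholds and filters. The ATAC-Seq and ChIP-Seq data of the study were not used here. Some genes of the companion lists are not reported here.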

Additional observations from a re-analysis of the deposited data

How the results depend on the processing

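No paired analysis was possible because there was 1 library for each cell type. Of 232 folds of 29 receptors under 5 other scalings, 2 other floors and a pseudocount, 8 lay outside the counting interval of the reported fold, and 0 of the called receptors changed direction. The counting intervals hold the TMM scaling fixed, so for small folds an interval without equality also depends on the scaling. Over the scalings, *Nr3c1* ranged from 1.02-fold to 1.22-fold toward chondrocytes and *Nr2c2* from 1.04-fold to 1.24-fold toward dermal fibroblasts. *Esrra*, within 1.1-fold of equality, changed sign with *Actb* scaling, and *Rxrg* (log2 fold 0.99) passed 2-fold with upper quartile scaling (1.03), without the 10 most abundant genes (1.04) and with *Actb* (1.12), which made 3 receptors called higher in chondrocytes under each. The median log2 fold of the 27 receptors ranged from -0.34 with total counts to -0.08 with *Actb*. Relative to TMM, total counts moved the median log2 fold of all genes with a mean of at least 10 scaled counts by -0.14 and *Actb* by 0.12.

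The 7 receptors called higher in dermal fibroblasts became 3 with a fold over 4, 3 with the whole interval beyond 2-fold and 2 with a mean of at least 100 scaled counts. With a fold over 1.5 they became 9. The 2 called higher in chondrocytes became 0 with total counts, a floor of 10 counts, a fold over 4, the whole interval, or a mean of at least 10 or 100 scaled counts, 1 with a pseudocount of 1, and 5 with a fold over 1.5. All genes called higher in chondrocytes went from 1887 to 2876 (pseudocount of 1), 713 (fold over 4), 3209 (fold over 1.5), 1041 (whole interval) and 866 (mean of at least 100), and those higher in dermal fibroblasts from 2468 to 929, 3862, 1546 and 1300 under the last 4. Fewer genes pass the stricter settings by construction. The share of calls higher in chondrocytes was 43.3%. It was 35.7% with total counts, 48.0% with a floor of 1, 48.6% with *Actb* and 50.3% with a pseudocount of 1, where the majority turned. Depth limits the receptors under 100 counts, whose intervals are wide.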
